A study of Mus musculus with 48 samples.

Results

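The Period and cryptochrome genes and their partner repressors of the circadian clock were followed through the livers of 48 male mice. The 8 genes Per1, Per2, Per3, Cry1, Cry2, Ciart, Bhlhe40 and Bhlhe41 were taken by name, each through the probesets that the array's annotation gives to that gene symbol alone. They had 9 probesets (Ciart had 2, the others 1 each) out of 35556 on the array, where 19938 genes have a probeset of their own. All values are log2 expression values as the study deposited them, so that a difference of 1 is a 2-fold change. Where a group is described by 3 values, these are the lowest, the median and the highest of its 8 mice.

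The mice carried no, 1 or 2 working copies of Wfs1, a gene of the endoplasmic reticulum membrane whose loss causes Wolfram syndrome in humans. They were Wfs1 -/- (KO), Wfs1 +/- (HZ) or Wfs1 +/+ (WT), and each genotype was given valproic acid (VPA), a mood stabilizer and anticonvulsant that inhibits histone deacetylases, or saline. The 6 groups of 8 mice were thus KO given VPA, KO given saline, HZ given VPA, HZ given saline, WT given VPA and WT given saline. VPA was injected into the peritoneum at 300 mg/kg every day for 12 weeks, and the saline mice received 10 ml/kg. Mice of all 6 groups began at 4 to 6 weeks of age, had a glucose tolerance test with 2 g/kg glucose 24 h after the last injection, and were killed 24 h after that test, thus 48 h after the last dose, at 16 to 18 weeks of age. The mutant allele has only exons 7 and 8 of Wfs1 disrupted, per the study's text. The hour of killing is not given in the sources used here. The labels also number the animals, with 5 to 30 in saline mice and 59 to 84 in VPA mice, so that whatever these numbers stand for cannot be told apart from treatment.

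In the mammalian clock the activators CLOCK and BMAL1 (the product of Arntl) bind E-box elements in DNA and switch on the Per and Cry genes, whose proteins come back to the nucleus and repress the same activators. CIART (also called CHRONO) and the basic helix-loop-helix proteins BHLHE40 (DEC1) and BHLHE41 (DEC2) are further repressors of CLOCK and BMAL1 and are themselves driven through E-boxes. In the liver most of these transcripts rise and fall strongly over the day, with the trough of the Per genes and Ciart near the peak of Arntl, and Cry1 peaking later than the Per genes. The comparisons below ask how these transcripts differed with chronic VPA and with the missing copies of Wfs1. They also ask whether the difference with VPA (called its effect below) depended on genotype.

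Stretches of DNA around the annotated gene starts were searched for the elements through which this loop is known to run. Each window held 300 bases, 250 before and 50 after a start, as given by RefSeq for the mouse build GRCm38.p6. Of the 8 genes 6 had such a window, and Per1 had 2, one for each of 2 annotated starts. The annotated span of Per1 begins farther upstream, at position 69095108 of chromosome 11, and no window covered that end. The search was for the E-box CACGTG, for the variant E′-box CACGTT, and for the D-box, the element bound by DBP, TEF and HLF, in the form TTATGTAA. Both strands were read. Among all 32851 promoter windows of 27025 genes, 7.15% held the E-box, 4.68% the E′-box and 0.938% the D-box. The windows of 4 genes are printed in full because these genes mark the ends of the range of responses reported below: Ciart (chr3:95882179-95882478, minus strand), Per1 at its first listed start (chr11:69098699-69098998, plus strand), Per3 (chr4:151044616-151044915, minus strand) and Cry1 (chr10:85185005-85185304, minus strand). They read 5′ to 3′ along the gene, with E-box, E′-box and D-box letters in capitals (the E′-box of Cry1 lies on the other strand and so is printed as its reverse complement).
Ciart: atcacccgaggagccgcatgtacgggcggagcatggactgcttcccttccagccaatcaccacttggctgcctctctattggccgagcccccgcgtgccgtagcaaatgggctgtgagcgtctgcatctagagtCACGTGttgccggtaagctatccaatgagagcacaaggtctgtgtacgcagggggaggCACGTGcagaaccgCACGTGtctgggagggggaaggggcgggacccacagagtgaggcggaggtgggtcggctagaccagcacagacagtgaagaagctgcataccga
Per1: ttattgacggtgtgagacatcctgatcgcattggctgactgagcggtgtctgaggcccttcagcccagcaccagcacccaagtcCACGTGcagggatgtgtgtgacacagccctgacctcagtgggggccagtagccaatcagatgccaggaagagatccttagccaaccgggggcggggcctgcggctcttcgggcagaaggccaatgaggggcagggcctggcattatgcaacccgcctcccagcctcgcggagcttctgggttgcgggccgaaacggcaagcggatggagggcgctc
Per3: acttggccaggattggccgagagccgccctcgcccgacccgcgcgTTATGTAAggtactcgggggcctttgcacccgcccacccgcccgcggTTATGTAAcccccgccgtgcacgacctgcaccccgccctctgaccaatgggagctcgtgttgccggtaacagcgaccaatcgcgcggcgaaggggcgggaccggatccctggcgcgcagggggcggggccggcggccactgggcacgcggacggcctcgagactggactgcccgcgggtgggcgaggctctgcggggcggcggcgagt
Cry1: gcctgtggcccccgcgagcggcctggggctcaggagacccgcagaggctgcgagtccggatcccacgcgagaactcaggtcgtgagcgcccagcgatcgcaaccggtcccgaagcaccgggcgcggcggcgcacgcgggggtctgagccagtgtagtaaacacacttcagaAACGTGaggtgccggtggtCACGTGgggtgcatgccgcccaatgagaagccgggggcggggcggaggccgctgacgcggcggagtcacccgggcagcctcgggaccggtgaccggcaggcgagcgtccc

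Ciart thus held 3 E-boxes, with first bases at -116, -58 and -44 from the start. Per1 held 1 E-box at -166 from the first of its 2 starts with a window and none of the 3 elements around the second. Per3 held no E-box but 2 D-boxes, at -205 and -158. In Cry1 an E′-box at -79 was followed by an E-box at -60, with no overlap. Cry2 had a single E′-box at -166 and Bhlhe41 a single E-box at -153. Per2 and Bhlhe40 were not matched to a window. A match is a run of letters and not a shown binding site.

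**Figure D1:**
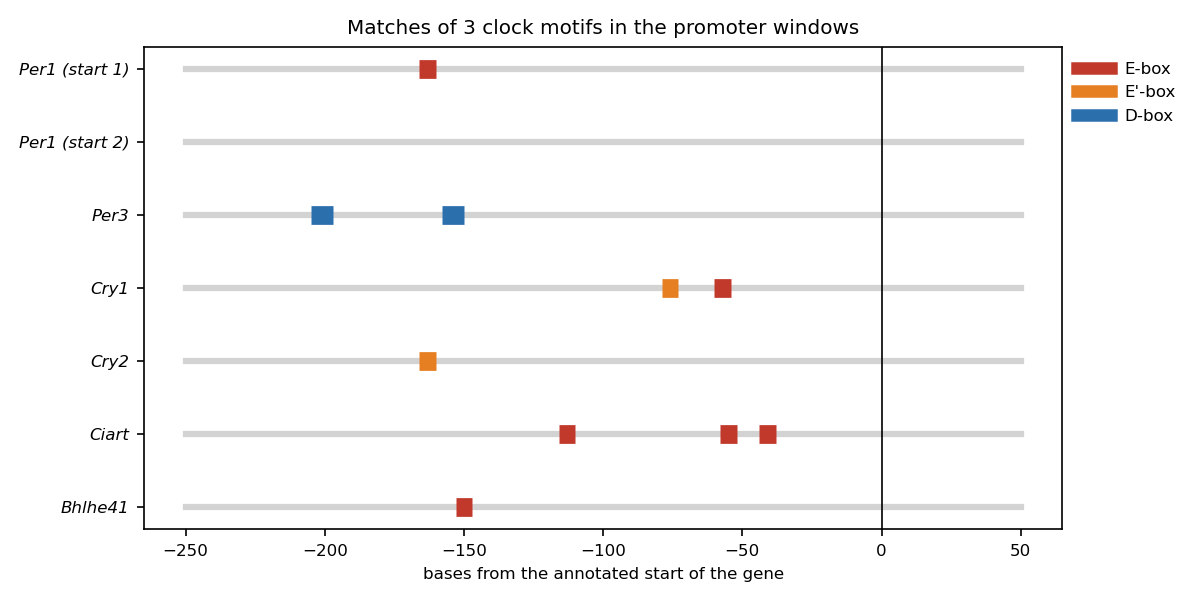
Positions of the E-box, E′-box and D-box in the 7 promoter windows of 6 genes, in bases from the annotated start at 0. Ciart has 3 E-boxes, the farthest at -116, Per3 has 2 D-boxes, and the window at the second start of Per1 is empty.

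Array medians lay between 6.90 and 7.03 and pairs of arrays correlated at 0.971 to 0.994, with no 2 arrays identical. Wfs1 itself overlapped between the genotypes: it lay between 8.00 and 8.67 in KO mice, 8.10 and 8.84 in HZ mice and 7.94 and 8.98 in WT mice (limma, KO against WT over both treatments, -0.15, adjusted p = 0.320), and as the probeset also reads exons that the allele keeps, it does not check the labels. Of 7 measured hepatocyte markers (Alb, Apoa1 and Ttr among them) none had a group mean under 5, and their log2 summed level lay between 16.6 and 16.8 in every group. In all tests below a linear model was fitted with limma to the 48 arrays, p-values were adjusted over all 35556 probesets, and a difference passed at an adjusted p under 0.05. Each mouse is a separate animal, so the p-values measure the spread between mice.

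Most of the repressors were lower in mice given VPA than in mice given saline. The animal numbers follow treatment and the hour of killing is not given, so their part cannot be told apart from that of VPA. Over the 3 genotypes, 7 of the 8 genes fell with VPA and none rose, where 4.6% of all probesets fell. Ciart fell the most, to 0.239 times its saline level, Per3 to 0.390 times, Per1 to 0.444 times, Per2 to 0.583 times, Bhlhe41 to 0.626 times, Bhlhe40 to 0.658 times and Cry2 to 0.808 times. Cry1 did not pass the test and had a positive difference. The median difference of the 8 genes was -0.727, beside -0.0163 over all probesets. Within single genotypes the counts were uneven. In HZ mice all 8 genes passed, 7 lower where 5.76% of all probesets were lower, and Cry1 higher where 4.72% were higher. In WT mice Per3 alone passed, as a fall, where 0.0197% of all probesets fell. All 8 genes had an unadjusted p under 0.05 there, as had 1973 of 35556 probesets. In KO mice none passed, where 0.0112% (4 probesets) passed in either direction. There 2 of the 8 genes had an unadjusted p under 0.05, as had 2547 of 35556 probesets. The median difference of the 8 genes was -0.384 in KO, -1.22 in HZ and -0.651 in WT mice, beside -0.0138, -0.0316 and -0.00574 over all probesets. In HZ mice the VPA and saline values did not overlap for 6 of the 8 genes (Per1, Per2, Per3, Cry2, Ciart and Bhlhe41, VPA lower), as for 0.813% of all probesets.

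**Figure D2:**
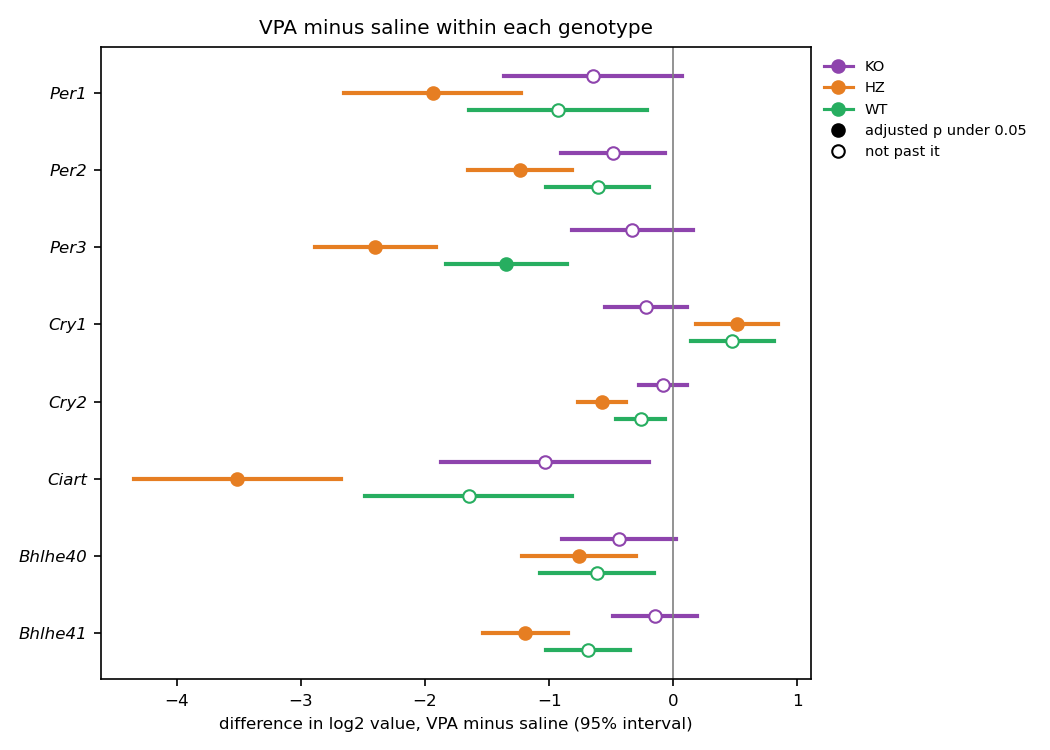
Difference in log2 value between VPA and saline mice for each of the 8 genes (rows), in KO, HZ and WT mice (8 VPA and 8 saline mice each). Points are the estimates, lines their 95% intervals, and filled points passed limma's adjusted p of 0.05: all 8 in HZ, Per3 alone in WT and none in KO mice.

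Markers of other liver cells moved with VPA as well. Of 8 measured Kupffer cell markers 4 rose over the 3 genotypes (Cd5l, Csf1r, Adgre1 and Cd68, by 0.32 to 0.41), and 5 rose in HZ mice. The log2 summed level of the 8 ran between 12.35 and 12.91 in HZ mice given VPA, against 11.47 and 12.50 in HZ mice given saline. It ran between 12.13 and 12.81 in KO mice given VPA, against 11.81 and 12.79 in KO mice given saline, and between 11.34 and 13.05 in WT mice given VPA, against 11.43 and 12.74 in WT mice given saline. Of 7 sinusoidal endothelial markers 3 rose, and 5 in HZ mice, where their summed level ran between 12.40 and 12.81 with VPA, against 11.98 and 12.44 with saline. Of 6 stellate cell markers 2 rose and 1 fell, and 3 rose in HZ mice. Of the 7 hepatocyte markers 2 fell (Cyp2e1 by 0.08 and Tat by 0.18), and none of the defining markers of these 4 cell types had a group mean under 5. The part of these shifts in the repressors' changes was not tested, and in whole liver fewer cells of a type and less RNA per cell cannot be told apart.

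Per1, Per2 and Per3 encode the Period proteins, which carry the cryptochromes into the repressor complex. Per1, which also answers quickly to glucocorticoids, ran at 6.83, 7.21 and 7.72 in HZ mice given VPA, against 7.86, 9.19 and 10.08 in HZ mice given saline. In KO mice Per1 ran at 7.20, 8.94 and 9.65 with VPA, against 7.95, 9.43 and 10.65 with saline. WT mice had 6.83, 7.13 and 8.65 with VPA, against 6.89, 8.16 and 9.23 with saline. VPA and saline values were apart in HZ mice and overlapped in KO and WT mice. The differences of Per1 were -0.65 in KO mice (SE 0.36, adjusted p = 0.738, 5 of 8 VPA mice below the saline mean), -1.94 in HZ mice (adjusted p = 0.000351, 8 of 8) and -0.93 in WT mice (adjusted p = 0.642, 7 of 8), all by limma with the same SE.

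Per2, whose human counterpart is mutated in a familial advanced sleep phase, ran at 7.70, 7.97 and 8.19 in HZ mice given VPA, against 8.85, 9.22 and 9.42 in HZ mice given saline. For KO mice the values were 7.89, 8.62 and 9.45 with VPA, against 8.12, 9.11 and 10.15 with saline. For WT mice they were 7.66, 7.87 and 8.64 with VPA, against 7.76, 8.65 and 9.08 with saline. Here too every HZ mouse given VPA was below every HZ mouse given saline, and the other 2 genotypes overlapped. Per2 fell by 1.24 in HZ mice (limma, SE 0.21, adjusted p = 0.000102, 8 of 8 mice), and its differences of -0.49 in KO mice and -0.61 in WT mice did not pass (adjusted p = 0.633 and 0.482, 6 of 8 and 7 of 8 mice).

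Per3, whose loss leaves the mouse clock running almost normally, ran at 6.67, 7.04 and 7.60 in HZ mice given VPA, against 9.11, 9.57 and 9.81 in HZ mice given saline, a fall to 0.189 times. KO mice had 7.50, 8.80 and 9.52 with VPA, against 8.26, 8.86 and 9.94 with saline. WT mice had 6.66, 7.05 and 7.35 with VPA, against 7.23, 8.48 and 8.87 with saline. HZ mice given saline were above all mice given VPA in the HZ and WT groups, and KO mice given VPA were all above the WT mice given VPA. Per3 fell by 2.40 in HZ mice (limma, SE 0.24, adjusted p = 3.53e-09, 8 of 8 mice) and by 1.34 in WT mice (adjusted p = 0.00351, 8 of 8 mice), while the difference of -0.33 in KO mice did not pass (adjusted p = 0.846, 4 of 8 mice).

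Cry1 and Cry2 encode the cryptochromes, the main direct repressors of CLOCK and BMAL1. Cry1 ran at 7.19, 7.73 and 8.44 in HZ mice given VPA, against 7.06, 7.20 and 7.40 in HZ mice given saline. In WT mice it ran at 7.45, 7.73 and 8.46 with VPA, against 7.24, 7.38 and 7.49 with saline, and the WT saline mice were the most uniform group of this gene. In KO mice it ran at 7.18, 7.44 and 8.28 with VPA, against 7.33, 7.52 and 8.53 with saline, with both groups holding 1 or 2 mice well above the rest. Cry1 rose by 0.51 in HZ mice (limma, SE 0.16, adjusted p = 0.0371, 7 of 8 mice above the saline mean), a call lost in 9 of the 48 fits that leave out 1 mouse, all of HZ mice (adjusted p up to 0.111). The difference of 0.48 in WT mice and that of -0.22 in KO mice did not pass (adjusted p = 0.518 and 0.857), nor did the 0.26 over the 3 genotypes (adjusted p = 0.077, 16 of 24 mice), which passed without KO saline replicate 3 or 4 (adjusted p down to 0.0338).

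Cry2 ran at 8.51, 8.73 and 9.01 in HZ mice given VPA, against 9.13, 9.32 and 9.44 in HZ mice given saline. KO mice had 8.83, 9.12 and 9.48 with VPA, against 8.79, 9.20 and 9.53 with saline, and WT mice had 8.36, 8.59 and 8.87 with VPA, against 8.61, 8.90 and 9.13 with saline. Its spread was small throughout, with an SD between 0.09 and 0.27 in the 6 groups. Cry2 fell by 0.57 in HZ mice (limma, SE 0.10, adjusted p = 0.00013, 8 of 8 mice), and the differences of -0.08 in KO mice and -0.26 in WT mice did not pass (adjusted p = 0.928 and 0.607). The change of Cry1 over the 3 genotypes exceeded that of Cry2 by 0.56 (95% interval 0.34 to 0.79, the per-mouse difference of both genes in a linear model).

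Ciart, which encodes a repressor that binds BMAL1 in the mouse, had the widest range of the 8. In HZ mice given VPA it ran at 6.03, 6.38 and 7.39, against 9.26, 9.91 and 11.21 in HZ mice given saline, a fall to 0.0876 times. In KO mice given VPA it ran at 6.70, 8.33 and 9.38, against 7.76, 9.36 and 10.41 in KO mice given saline. In WT mice given VPA it ran at 5.50, 6.37 and 7.00, against 5.97, 8.53 and 9.11 in WT mice given saline. The lowest HZ saline mouse was thus above every VPA mouse of the HZ and WT groups, and 2 WT saline mice, replicates 1 and 3 (5.97 and 6.89), were no higher than the highest WT mouse given VPA. Ciart fell by 3.51 in HZ mice (limma, SE 0.41, adjusted p = 1.12e-07, 8 of 8 mice). Its differences of -1.03 in KO mice and -1.65 in WT mice did not pass (adjusted p = 0.579 and 0.134, 5 of 8 and 8 of 8 mice), and the WT difference passed without WT saline replicate 1 (adjusted p = 0.0137). The second Ciart probeset, 10500272, gave -0.84 in KO, -2.55 in HZ and -1.16 in WT mice, and of the 3 genotypes passed in HZ mice (limma, adjusted p = 3.54e-07, 8 of 8 mice).

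Bhlhe40 and Bhlhe41 compete with CLOCK and BMAL1 for E-boxes. Bhlhe40, which is also induced by many acute stimuli, ran at 8.33, 9.50 and 9.85 in HZ mice given VPA, against 9.75, 10.03 and 10.62 in HZ mice given saline. KO mice had 8.90, 9.71 and 10.65 with VPA, against 9.76, 10.12 and 10.57 with saline, and WT mice had 8.63, 9.14 and 10.30 with VPA, against 9.45, 9.88 and 10.26 with saline. The groups overlapped in every genotype, and the VPA groups were the more spread. It fell by 0.76 in HZ mice (limma, SE 0.23, adjusted p = 0.0269, 8 of 8 mice), a call lost without HZ saline replicate 7 or HZ VPA replicate 1 or 6 (adjusted p up to 0.0843), and differed by -0.44 in KO and -0.62 in WT mice, neither past the test.

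Bhlhe41, whose human counterpart has been linked to short sleep, ran at 4.97, 5.25 and 5.94 in HZ mice given VPA, against 6.10, 6.49 and 6.81 in HZ mice given saline. KO mice had 5.07, 5.57 and 6.01 with VPA, against 4.85, 5.82 and 6.39 with saline, and WT mice had 4.92, 5.20 and 5.52 with VPA, against 5.10, 5.91 and 6.52 with saline. HZ mice given saline stood highest, and their lowest mouse lay above the highest HZ mouse given VPA. In every group Bhlhe41 had the lowest mean of the 8 genes. Its group means, from 5.22 to 6.48, lay below the array medians of 6.90 to 7.03. Bhlhe41 fell by 1.19 in HZ mice (limma, SE 0.17, adjusted p = 6.34e-06, 8 of 8 mice). The differences of -0.15 in KO mice and -0.69 in WT mice did not pass (adjusted p = 0.924 and 0.118, 6 of 8 and 8 of 8 mice), and the WT difference passed without WT saline replicate 1 (adjusted p = 0.0137).

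**Figure D3:**
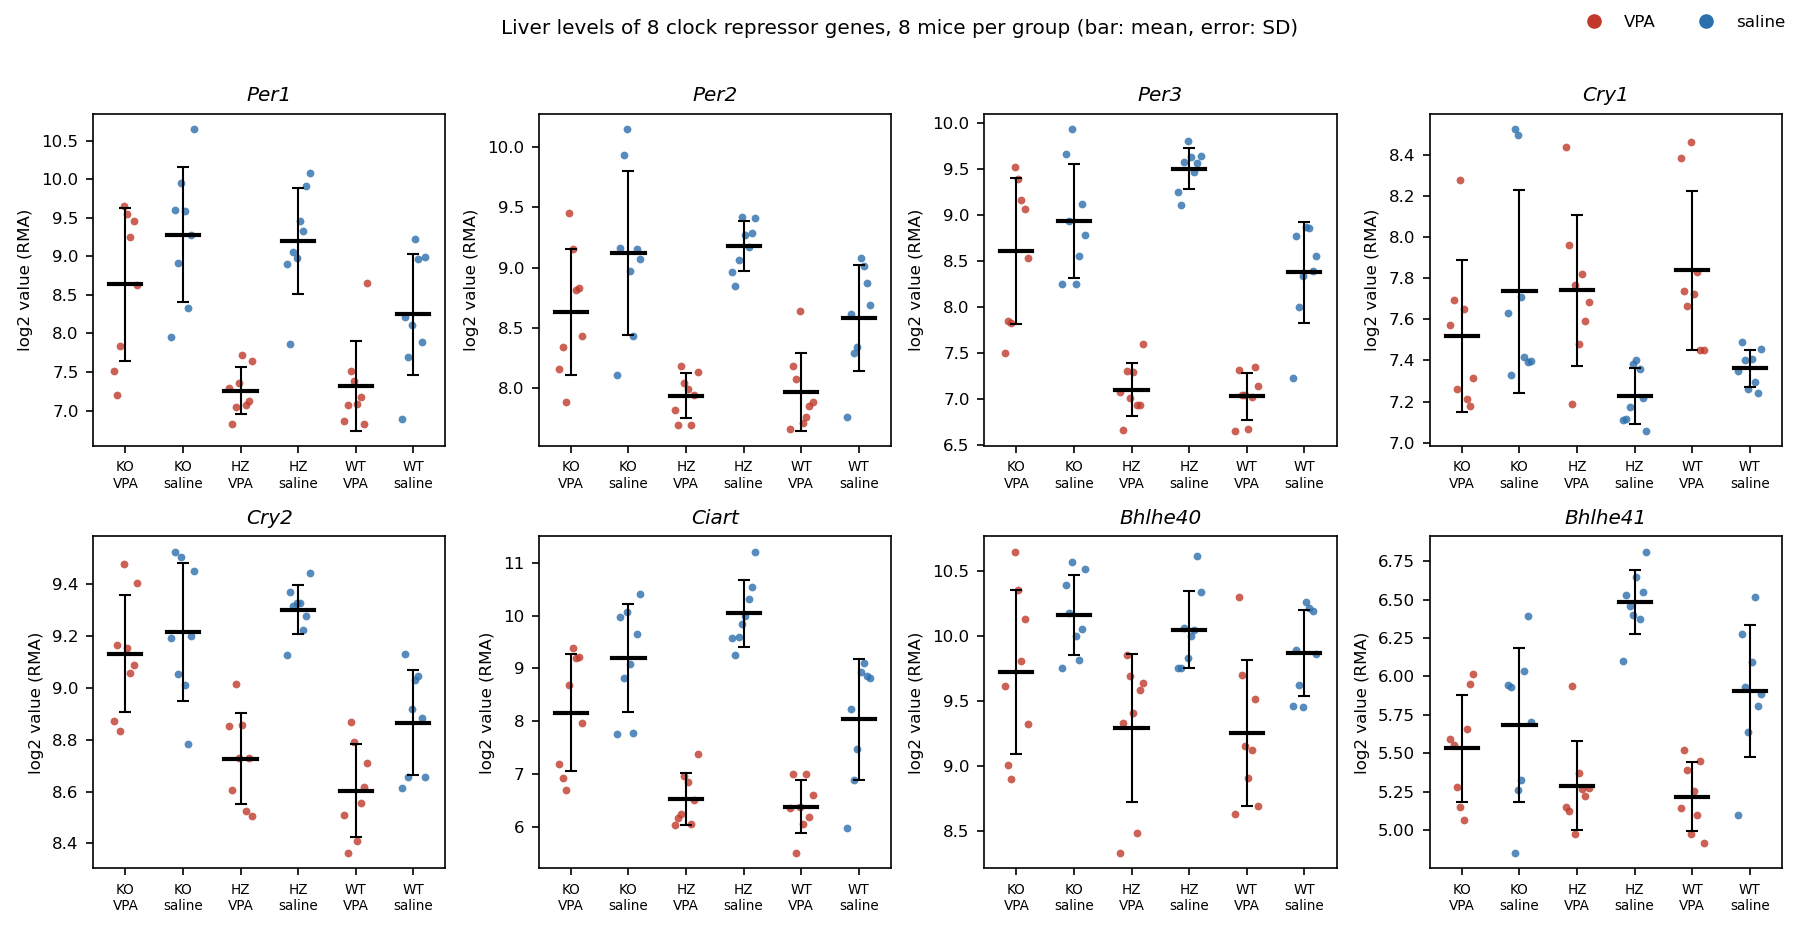
Log2 expression value (vertical axis) of each of the 8 genes in every mouse of the 6 groups, where the thick bar marks the mean and the thin line 1 SD either way (VPA red, saline blue). Ciart, Per3, Per1, Per2, Cry2 and Bhlhe41 show no overlap between VPA and saline in HZ mice, whereas in KO and in WT mice VPA and saline overlap for all 8 genes.

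Whether the difference between VPA and saline mice depended on genotype was tested directly. The F test of the interaction passed for Per3 alone of the 8 genes (limma, F = 18.3, adjusted p = 0.012), where 0.0816% of all probesets passed. The effect of VPA on Per3 in KO mice minus that in HZ mice was 2.07 (SE 0.34, adjusted p = 0.00225). Bhlhe41 passed the same comparison of KO with HZ mice, at 1.04 (SE 0.24, adjusted p = 0.0414), so that 2 of the 8 genes were called higher where 0.11% of all probesets were. The Bhlhe41 call was lost in 20 of the 48 fits without 1 mouse (adjusted p up to 0.0808), and Ciart stood just outside it, at 2.48 (SE 0.59, adjusted p = 0.0505). Ciart passed in 12 of the 48 fits without 1 mouse (limma adjusted p down to 0.0223), with array weights (adjusted p = 0.018), with only probesets of 1 symbol (adjusted p = 0.0259) and with only probesets whose group mean reached 5 (adjusted p = 0.0434). Its second probeset did not pass this comparison, at 1.71 (limma, adjusted p = 0.0828). The F test of the interaction gave Ciart an adjusted p of 0.124, and 0.18 with the second probeset. Between KO and WT mice the effects of VPA differed by 1.01 for Per3 (95% interval 0.33 to 1.70) and by -0.69 for Cry1 (-1.16 to -0.22), and between HZ and WT mice by -1.86 for Ciart (-3.04 to -0.68). None of the 8 passed either of these 2 comparisons with WT in limma, and 0% of all probesets did. At an unadjusted p under 0.05 were 3 and 5 of the 8, beside 974 and 2754 of 35556 probesets.

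Genotypes also differed in mice given saline. HZ mice given saline had the highest mean of the 6 groups for Per2, Per3, Cry2, Ciart and Bhlhe41, and the lowest for Cry1. Against WT mice given saline, 3 of the 8 genes were higher in HZ mice given saline, where 0.124% of all probesets were, and the median difference of the 8 was 0.586, beside 0.0214 over all probesets. Ciart was higher by 2.00 (limma, SE 0.41, adjusted p = 0.0162), 4.01 times, Per3 by 1.13 (adjusted p = 0.0214) and Cry2 by 0.44 (adjusted p = 0.0331), each in 8 of 8 HZ mice. For Per3 and Ciart the values did not overlap, as for 0.0731% of all probesets. The second Ciart probeset was higher by 1.47 (limma, adjusted p = 0.0237). Its values did overlap, with 6 of 8 HZ mice above every WT mouse. Per1, Per2 and Bhlhe41 had differences of 0.95, 0.60 and 0.58 that did not pass (adjusted p = 0.307, 0.252 and 0.145), Bhlhe40 differed by 0.18 and Cry1 by -0.13. Leaving out 1 mouse changed this count: 1 of the 8 genes passed without HZ saline replicate 4 or 5, and none passed without HZ saline replicate 8 (adjusted p = 0.0551 for Ciart). The Ciart call was also lost when only the arrays compared were fitted (adjusted p = 0.0631). The Cry2 call was lost in 9 of the 48 fits without 1 mouse and with median centring (limma, adjusted p = 0.065). None of the Kupffer cell or endothelial markers passed in this comparison, and 1 of 6 stellate cell markers was lower in HZ mice. The mean log2 summed level was 11.90 for Kupffer cell markers in HZ mice given saline, against 12.35 in WT mice given saline. For endothelial markers it was 12.26 against 12.56, and for stellate cell markers 12.50 against 12.78. The part of these markers in the repressors' differences was not tested. The HZ saline mice are also the baseline of the VPA effect in HZ mice, so both sets of differences share them. With VPA the same comparison of HZ with WT mice left 0 of the 8 genes past the test in limma, and so it did over both treatments. In either case 0.00281% of all probesets (1 probeset) passed. At an unadjusted p under 0.05 were 0 of the 8 with VPA, beside 1023 of 35556 probesets. Over both treatments 4 of the 8 were, beside 1919 of 35556 probesets. With VPA the largest of the 8 differences was 0.14 for Ciart (95% interval -0.70 to 0.98).

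KO mice had more of several repressors than WT mice. Over both treatments 5 of the 8 genes were higher in KO mice, where 1.37% of all probesets were, and none was lower. Ciart was higher by 1.46 (limma, SE 0.29, adjusted p = 0.00159, 14 of 16 KO mice above the WT mean of their treatment), Cry2 by 0.44 (SE 0.07, adjusted p = 5.97e-05, 15 of 16) and Per2 by 0.60 (SE 0.15, adjusted p = 0.012, 13 of 16). Per1 and Per3 were higher by 1.17 and 1.07 (adjusted p = 0.00324 and 7.59e-05, each in 14 of 16). Bhlhe40 differed by 0.38 (adjusted p = 0.247), and Cry1 and Bhlhe41 by 0.03 and 0.05, with 95% intervals of -0.21 to 0.26 and -0.20 to 0.29. The median difference of the 8 was 0.52, beside 0.00668 over all probesets. The Per2 call was lost when only the KO and WT arrays were fitted (adjusted p = 0.0581). Markers of other cells that moved in this comparison were 1 of 2 erythroid markers (Alas2, the erythroid enzyme of heme synthesis, lower by 1.24 in 16 of 16 KO mice, limma adjusted p = 6.95e-06), 1 of 4 cholangiocyte markers (Sox9, lower by 0.30) and 1 of 5 pancreas markers (Cela1, lower by 0.17). The log2 summed level of the 2 erythroid markers ran between 9.04 and 10.78 in KO mice given VPA, against 10.57 and 11.35 in WT mice given VPA, and between 8.74 and 10.35 in KO mice given saline, against 10.60 and 11.11 in WT mice given saline. None of the Kupffer cell, endothelial, stellate cell or hepatocyte markers passed, and the part of the markers that moved in the repressors' changes was not tested.

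Split by treatment, 3 of the 8 genes were higher in KO than in WT mice under VPA, where 0.191% of all probesets were. None passed under saline, where 0.79% of all probesets passed. Under saline 6 of the 8 genes had an unadjusted p under 0.05, as had 3290 of 35556 probesets. Under VPA Per3 was higher by 1.58 (limma, SE 0.24, adjusted p = 0.000375), Ciart by 1.77 (adjusted p = 0.0328) and Cry2 by 0.53 (adjusted p = 0.00278), each in 8 of 8 KO mice. Per3 was the 1 member whose KO and WT values did not overlap under VPA, as for 0.0928% of all probesets. The Ciart call was lost in 8 of the 48 fits without 1 mouse (adjusted p up to 0.113) and with the second probeset (adjusted p = 0.0985). It was also lost without variance moderation (adjusted p = 0.0529) and when only the arrays compared were fitted with limma (adjusted p = 0.0852). Under saline the differences ran from -0.22 for Bhlhe41 to 1.16 for Ciart, and the smallest adjusted p was that of Cry2 (0.35, limma adjusted p = 0.0787, 7 of 8 mice), which passed without KO saline replicate 6 (adjusted p = 0.0243).

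**Figure D4:**
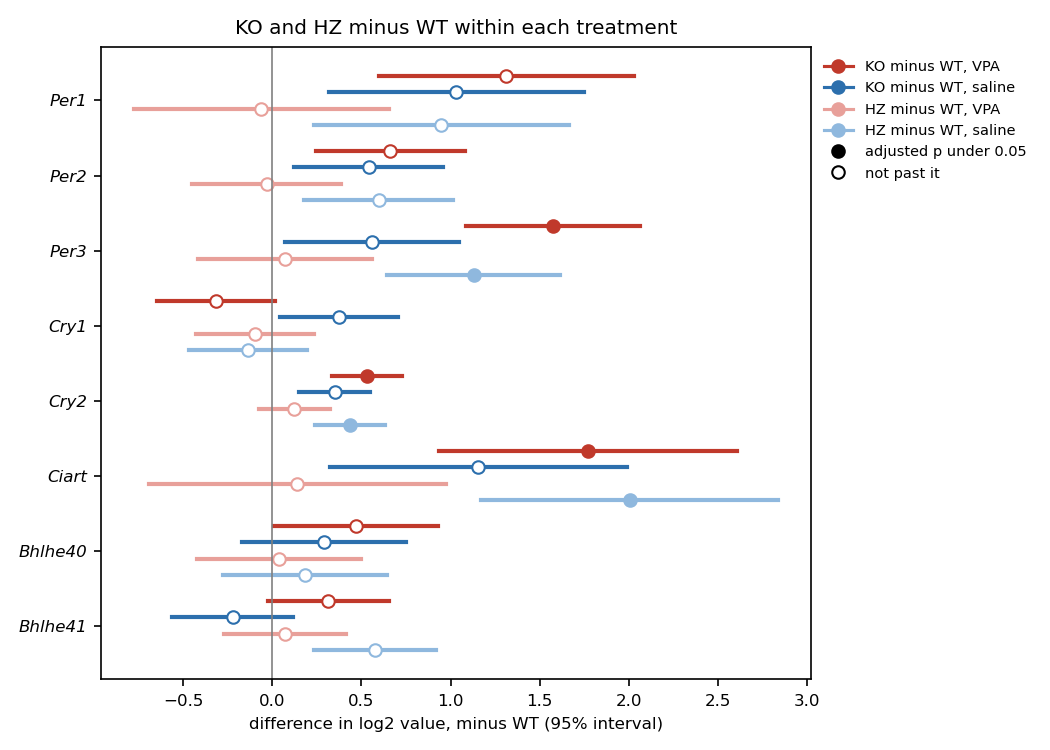
Difference in log2 value of KO or HZ mice from WT mice, for each of the 8 genes (rows) under VPA and under saline (8 mice a group). Points are the estimates, lines their 95% intervals, and filled points passed limma's adjusted p of 0.05: Per3, Cry2 and Ciart in KO mice under VPA and in HZ mice under saline.

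KO mice were also set against HZ mice. Under VPA 2 of the 8 genes were higher in KO mice, where 0.186% of all probesets were: Per3 by 1.50 (limma, SE 0.24, adjusted p = 0.00156, 8 of 8 mice) and Cry2 by 0.41 (adjusted p = 0.0494, 8 of 8 mice), the second lost in 31 of the 48 fits without 1 mouse. Under saline Bhlhe41 was lower in KO mice by 0.80 (limma, SE 0.17, adjusted p = 0.00493, 8 of 8 mice), where 0.692% of all probesets were lower, a call kept in all 48 fits without 1 mouse (adjusted p up to 0.0207). Cry1 was above the HZ saline mean in 8 of 8 KO mice given saline, by 0.51, and did not pass (adjusted p = 0.119). In the same comparison 4 of 7 sinusoidal endothelial markers were higher in KO mice (Stab2, Kdr, Stab1 and Oit3, by 0.34 to 0.40), with a log2 summed level of the 7 between 12.41 and 12.96 in KO mice given saline, against 11.98 and 12.44 in HZ mice given saline. Of 6 stellate cell markers 1 was higher (Reln, by 0.37), with a summed level between 12.60 and 12.85 in KO mice, against 12.34 and 12.71 in HZ mice. Of the 2 erythroid markers Alas2 was lower, with a difference of -1.54, and the summed level of both ran between 8.74 and 10.35 in KO mice, against 10.59 and 11.31 in HZ mice. Under VPA 1 of 4 cholangiocyte markers was lower in KO mice (Sox9, by 0.51), with a summed level of the 4 between 9.02 and 9.28 in KO mice, against 8.97 and 9.49 in HZ mice. The part of these markers in the repressors' differences was not tested.

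Close relatives did not always change by the same amount. Over the 3 genotypes the change of Per1 with VPA minus that of Per2 was -0.39 (95% interval -0.72 to -0.06), and the change of Per2 minus that of Per3 was 0.58 (0.40 to 0.76), so Per2 fell the least of the 3. Between Per1 and Per3 the difference was 0.19 (-0.11 to 0.49), and between Bhlhe40 and Bhlhe41 it was 0.07 (-0.24 to 0.38), both intervals holding 0. In KO against WT mice the change of Per1 minus that of Per2 was 0.57 (0.17 to 0.97), that of Per2 minus Per3 -0.47 (-0.69 to -0.25) and that of Cry1 minus Cry2 -0.41 (-0.68 to -0.14). In this comparison too, Per1 and Per3 (0.10, interval -0.26 to 0.47) and Bhlhe40 and Bhlhe41 (0.34, interval -0.05 to 0.72) had intervals that held 0.

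Mice of 1 group differed widely, and the spread was itself uneven between groups. The median SD over the 8 genes was 0.58 in KO mice given VPA, 0.56 in KO mice given saline, 0.30 in HZ mice given VPA, 0.22 in HZ mice given saline, 0.35 in WT mice given VPA and 0.43 in WT mice given saline; a difference in spread was not tested. WT saline replicate 1 was below its group's mean for all 8 genes, with a median deviation of -0.81, and KO VPA replicate 3 was likewise below for all 8, at -0.76. WT saline replicate 5 was above for all 8 (0.44), and KO VPA replicate 4 above for 7 (0.79). Across the 48 mice, after subtracting each group's mean, Pearson's r was highest for Per1 with Ciart (0.83, Spearman's rho 0.79, r 0.81 without the 2 mice farthest from the median) and for Per2 with Per3 (0.79, rho 0.82, r 0.76). Per3 with Ciart had 0.77 (rho 0.74, r 0.73), and within single groups of 8 mice this pair ran between 0.27 and 0.92. In the same groups Per1 with Ciart ran between 0.04 and 0.94, and Per2 with Per3 between 0.41 and 0.93. The 3 Per genes, Ciart and Bhlhe40 had rounded r of 0.50 to 0.83 with each other. The lowest was that of Per1 with Bhlhe40, which ran between -0.29 and 0.87 within single groups. Cry2 had an r of 0.46 with Per1, 0.51 with Per2, 0.56 with Per3, 0.40 with Ciart and 0.33 with Bhlhe40. Cry1 and Bhlhe41 had mostly lower values. For Cry1 the r was -0.01 with Per1, 0.41 with Per2 (rho 0.15), 0.09 with Per3, 0.08 with Cry2, -0.02 with Ciart and -0.07 with Bhlhe40. For Bhlhe41 it was 0.06 with Per1, -0.09 with Per2, 0.20 with Per3, 0.24 with Cry2, 0.19 with Ciart and 0.17 with Bhlhe40. Low values could hide opposite ones: within single groups Per2 with Bhlhe41 ran between -0.64 and 0.81, and Per3 with Cry1 between -0.50 and 0.52. Between Cry1 and Bhlhe41 it was -0.54 (rho -0.52, r -0.44), below 0 in 5 of the 6 groups. These are descriptions over 28 pairs of genes read from the same arrays after 1 joint normalization.

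**Figure D5:**
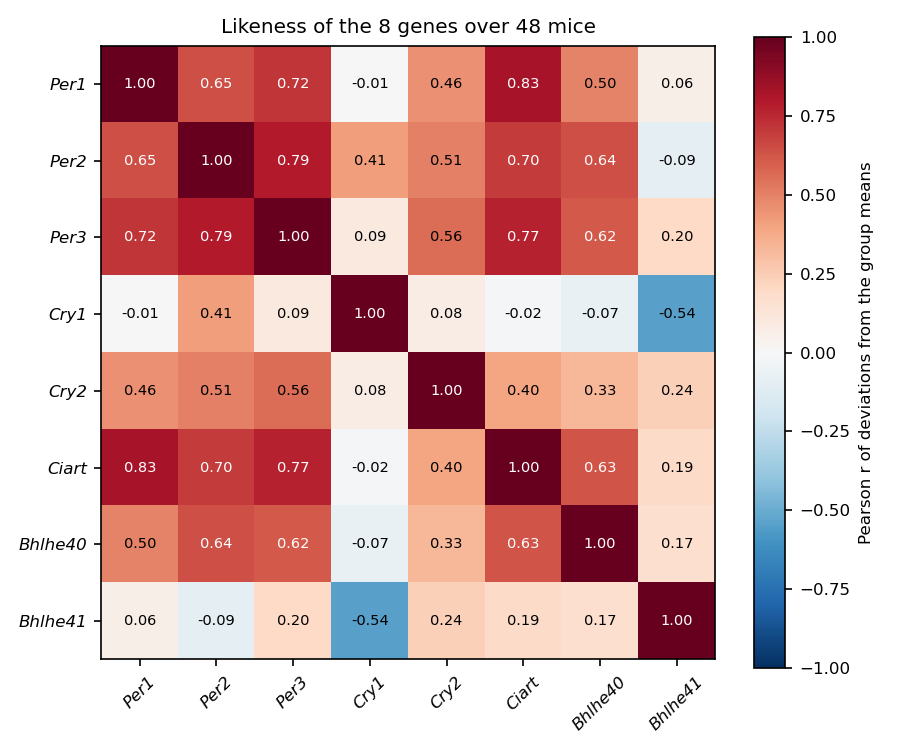
Pearson correlation between the 8 genes over 48 mice, each value taken as its deviation from the mean of its group. The 3 Per genes, Ciart and Bhlhe40 share correlations of 0.50 to 0.83, and Cry2 lies between 0.33 and 0.56 with them. Cry1 lies near 0 with Per1, Per3 and Ciart and at 0.41 with Per2. Bhlhe41 lies between -0.09 and 0.24 with all but Cry1, and Cry1 with Bhlhe41 is at -0.54.

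Among 19930 other genes, those whose mouse-to-mouse deviations were most like a member's were picked out by Pearson's r. Per1 was most like Noct (r = 0.84), which encodes the rhythmic protein nocturnin, followed by Herpud1 (0.79) and Tsc22d3 (0.78), a glucocorticoid-induced gene, and most opposite to Tnfaip2 (-0.67) and the activator Clock (-0.66). Per2 was most like Usp2 (0.81), which encodes a deubiquitinase, Lrrc28 and Marveld1 (both 0.75), and opposite to Ubxn1 (-0.70) and Crot (-0.69). Per3 was most like Tef (0.88), one of the D-box binding factors, Usp2 (0.83) and Wee1 (0.81), a cell cycle kinase, and opposite to B3gat3 (-0.64) and Phospho1 (-0.60). Ciart was most like Usp2 (0.82), Mpzl2 (0.81) and Noct (0.77), and opposite to B3gat3 (-0.70) and Asap2 (-0.65).

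Cry1 had its nearest gene in Lonrf3 (0.81), then Ahctf1 (0.68) and Desi2 (0.64), and was opposite to Nr1d1 (-0.74), which encodes the repressor REV-ERB alpha, and Klf9 (-0.70). Cry2 was most like Ngef (0.77), Fchsd2 and Plekhg3 (both 0.73), and opposite to Sytl4 (-0.68) and Ugt3a2 (-0.60). Bhlhe40 was most like Klf10 (0.68), Dusp1 and Txnl4a (both 0.67), and opposite to Ubxn1 (-0.62) and Clpx (-0.61). Bhlhe41 was most like Dbp (0.68), Nr1d2 (0.66) and Tbc1d10a (0.61), and opposite to Lonrf3 (-0.66), the nearest gene of Cry1, and H2al3 (-0.64). Each r is over the same 48 mice.

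Other genes of the loop were counted in 4 lists. Among the clock activators 2 of 3 measured genes rose with VPA over the 3 genotypes, Arntl by 1.51 (limma, SE 0.13, adjusted p = 5.94e-11, 22 of 24 mice) and Clock by 0.37 (adjusted p = 1.55e-05). Of the 4 factors that act on D-boxes, the activators Dbp, Tef and Hlf fell and their antagonist Nfil3 rose, Dbp by 1.92 (SE 0.17, adjusted p = 5.94e-11, 22 of 24 mice) in the same direction as Per3 and Ciart. Of 4 REV-ERB and ROR receptors 2 fell and 1 rose, and of 14 kinases, ubiquitin ligases and other proteins that modify or degrade the repressors 1 rose and 1 fell, the fall being that of Usp2 by 1.68 (adjusted p = 1.13e-08, 23 of 24 mice). In HZ mice the counts were 2 up of 3 activators, 1 up and 3 down of 4 D-box factors, 1 down of 4 receptors and 2 up and 1 down of 14 modifiers. For WT mice they were 1 up of 3 activators, 1 up and 2 down of 4 D-box factors, and 1 down of 4 receptors. None of the 14 modifiers passed in WT mice, where 25 of 35556 probesets passed. None of the 25 measured genes of these 4 lists passed in KO mice, where 4 of 35556 probesets passed. In KO against WT mice over both treatments 1 activator fell (Clock, by 0.48 in 16 of 16 KO mice, adjusted p = 1.15e-05), 2 D-box factors rose (Dbp by 1.02 and Tef by 0.58) and 1 fell (Nfil3), 1 receptor rose, and Usp2 was the 1 modifier that rose (0.84, adjusted p = 0.0224). In HZ against WT mice given saline Arntl and Clock were lower by 0.98 and 0.68 (adjusted p = 0.0394 and 0.000193, 8 of 8 and 8 of 8 mice), and Tef and Usp2 were higher.

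Ordered by their means, the 6 groups ended the same way for most members. HZ and WT mice given VPA held the 2 lowest means for Per1, Per2, Per3, Cry2, Ciart, Bhlhe40 and Bhlhe41, and in none of the 7 did the gap between these 2 groups exceed their pooled SD. For Per1, Per2, Per3 and Ciart the group above them was WT mice given saline, and that step exceeded the pooled SD. KO mice given VPA lay between KO mice given saline and WT mice given saline in all of Per1, Per2, Per3, Cry2 and Ciart, and the step up to the next group was within the pooled SD in each. At the top HZ mice given saline stood apart from the next group by more than the pooled SD for Per3 and Bhlhe41. Bhlhe40 showed no step beyond the pooled SD between any neighbours, and in Cry1 the only such step was that between WT mice given saline and HZ mice given saline at the low end.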

How the data were processed

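Total liver RNA of 48 mice (6 groups of 8, grouped by the genotype and treatment in the labels) had been hybridised to Affymetrix Mouse Gene 1.0 ST arrays, 1 mouse per array. The deposited log2 values were made by the authors with RMA (background correction, quantile normalization and probe summary) in Affymetrix Expression Console 1.1.2800.28061, and were used unchanged. Quantile normalization gives all arrays 1 distribution, so a shift of all transcripts would not be seen, and the number of arrays limits the precision. Of 35556 probesets 21789 had 1 gene symbol, 1621 several and 12146 none in the platform annotation; a gene was represented by its single-symbol probeset with the highest mean. A model with 1 mean per group (42 residual degrees of freedom) was fitted to all probesets with limma 3.58.1 in R 4.3.3, with empirical Bayes moderation and Benjamini-Hochberg adjustment over all 35556 probesets. The study's methods name a two-way analysis of variance; its unmoderated form was an alternative. The fit was tested on simulated data.

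The genes named are the 8 members, the 3 most alike and 2 most opposite genes of each by the correlation of deviations from group means, up to 4 other clock genes per comparison, markers of liver cells and Wfs1. The members and lists were chosen with earlier results of these data known. Marker lists covered hepatocytes, Kupffer cells, sinusoidal endothelium, stellate cells, cholangiocytes, lymphocytes, neutrophils, erythroid cells, pancreas, adipocytes and muscle; 57 of 67 listed genes were measured. With VPA over the 3 genotypes 1 of 4 cholangiocyte markers rose and 1 fell, 1 of 5 neutrophil and 1 of 2 erythroid markers fell, and no lymphocyte, pancreas, adipocyte or muscle marker passed. Alternatives were other variance moderation, array weights, median centring, filters on probesets, fitting only the groups compared, a replicate block, a stricter threshold, unlogged means, the second Ciart probeset and leaving out each mouse. Promoter windows were read from RefSeq (GRCm38.p6) with Python 3.11.15, and plots were drawn with matplotlib 3.10.9.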

Additional observations from a re-analysis of the deposited data

Results flagged for a closer look

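In 3 of the 54 sets of 8 mice examined (9 probesets in 6 groups), 1 mouse stood far from the rest, a gap that chance gives in about 1 of 20 sets. Per1 in WT VPA replicate 8 was at 8.65, with the next mouse at 7.51, a gap of 0.629 of the group's range. Bhlhe41 in HZ VPA replicate 3 was at 5.94, with the next at 5.37 (0.586 of the range), and Cry1 in KO VPA replicate 4 was at 8.28, with the next at 7.70 (0.529 of the range).

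The KO minus HZ difference of the VPA effect passed for 2 of the 8 genes, where 0.11% of all probesets were higher. For Per3 the effect was -0.33 in KO, -2.40 in HZ and -1.34 in WT mice. Its KO minus HZ difference was 2.07 (limma, adjusted p = 0.00225). The F test of the interaction also passed for Per3 (limma, adjusted p = 0.012), where 0.0816% of all probesets passed. For Bhlhe41 the effect was -0.15 in KO, -1.19 in HZ and -0.69 in WT mice, and KO minus HZ was 1.04 (limma, adjusted p = 0.0414). That call was lost in 20 of the 48 fits without 1 mouse. The F test did not pass for Bhlhe41 (limma, adjusted p = 0.135).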

How the results depend on the processing

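None of the differences of the 8 genes that passed the test in the main setting changed sign under any alternative. Of the numbers of genes that passed, KO against HZ under VPA (2) was 1 with a variance trend and robust estimation, without variance moderation, with median centring, with only the groups compared and at an adjusted p under 0.01, and 4 with probesets of 1 symbol. The KO minus HZ difference of the VPA effect (2) was 1 without moderation, with median centring, with only the groups compared and at an adjusted p under 0.01, and 4 with array weights. VPA against saline in WT mice (1) was 3 with array weights, the interaction (1) was 3 with array weights and 0 at an adjusted p under 0.01, and HZ against WT under saline (3) was 0 at an adjusted p under 0.01. Leaving out 1 mouse gave 1 to 3 genes for VPA in WT mice, 0 to 1 for KO against WT under saline, 0 to 3 for HZ against WT under saline, 1 to 4 for KO against HZ under VPA, 1 to 3 for the KO minus HZ difference, 7 to 8 for VPA over the 3 genotypes, 6 to 8 for VPA in HZ mice and 2 to 4 for KO against WT under VPA. The causes were not tested. With the replicate number as a block (replicate block) the numbers were 8 for VPA over the 3 genotypes (7 without the block), 2 for VPA in WT mice, 4 for KO against WT under VPA (3 without), 4 for KO against HZ under VPA, 3 for the KO minus HZ difference and 2 for the interaction; no call of a member was lost with it. Samples share only that number: over all probesets, 53 of 120 same-numbered pairs had deviations correlated over 0.1 (mean r 0.0546, beside -0.0078 for other pairs), and 11 of 48 arrays correlated best with their own number. With the block the SE of KO against HZ under VPA went from 0.41 to 0.34 for Ciart and from 0.36 to 0.28 for Per1. The deviations of Ciart ran from -0.46 in replicate 1 to 1.17 in replicate 8 of HZ saline mice. In KO saline mice replicate 2 was at 0.79 and replicate 6 at -1.42. What the number stands for is not given and was not tested. Leaving out 1 mouse kept the interaction at 1 gene (Per3, adjusted p 0.00208 to 0.0281). Fitting only the groups compared gave no separate value for it, as it uses all 6 groups.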
